A study of Rattus norvegicus with 2 samples.

Results

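Among the mature oligodendrocytes of the rat hypothalamus, 71 cells carried little or no transcript of *Klk6*, and they are described here as Klk6-low mature oligodendrocytes. A cell was counted as mature when at least 4 of the 6 genes *Mobp*, *Mog*, *Mal*, *Mag*, *Opalin* and *Ermn* were detected, when *Mog*, *Opalin* and *Ermn* summed to 4 unique molecular identifiers (UMIs, tags that mark each captured RNA molecule) or more, and when fewer than 2 of *Snap25*, *Csf1r*, *Cldn5* and *Gja1* were detected. It was counted as Klk6-low when it held at most 1 *Klk6* UMI. The cells were chosen by these counts, so the levels of those genes are part of the choice and not a finding. Of 7847 barcodes kept from both libraries (at least 200 detected genes and at most 30% of UMIs in mitochondrial genes, whose names start with Mt-), 35 in Control and 36 in SC300 met the rule. The remaining mature cells, with 2 or more *Klk6* UMIs, are called Klk6-positive and numbered 308 in Control and 397 in SC300.

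The hypothalamic tissue held the AVPV and ARC areas and came from female Sprague Dawley rats at PND 29, which the labels give as 4 weeks of age. SC300 rats had a silicone capsule with 300 µg estradiol benzoate (EB) implanted at PND 0.5. The methods give Control rats an oil capsule, the label of the Control library reads intact, and the design text ties the oil vehicle to SC300, so the groups were taken from the library labels. Tissue from 3 rats of a group was pooled before dissociation with collagenase, and 1 library was sequenced per group, which leaves no measure of variation between rats and allows no test between the groups. The oligodendrocytes are those that survived dissociation, and treatment and library cannot be told apart. The Control library held 52004789 UMIs over 4488 barcodes and the SC300 library 57013099 UMIs over 4524 barcodes. The sequences of 9 barcodes occurred in both libraries, and 0 of the 71 cells carried any of them.

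Oligodendrocytes wrap axons with myelin, a stack of membrane held together by proteins such as *Mbp* and rich in cholesterol and galactolipids. Precursors marked by *Pdgfra* leave the cell cycle, pass through a newly formed stage marked by *Enpp6* and *Bmp4*, begin to make myelin, and then settle into several mature states that differ in genes such as *Opalin*, *Apod*, *Ptgds* and *Klk6*. *Klk6* encodes kallikrein-related peptidase 6, a secreted serine protease that is abundant in oligodendrocytes of the spinal cord and hindbrain.

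Promoters are shown for 5 genes on which the description below turns, namely the rule genes *Opalin*, *Mal* and *Klk6*, *Hapln2* as a gene of the node whose level was far apart on either side of the *Klk6* limit, and *Enpp6* as the marker of the newly formed stage. Each sequence covers 250 bases before and 50 bases after the gene start in RefSeq on the build GRCr8, written 5′ to 3′ on the strand of the gene. Capitals mark ACAAAG, a core found in the motifs of SOX and TCF/LEF factors, and CTGGCAC, a form of the motif of the myelin factor *Myrf*, each searched on both strands so that CTTTGT and GTGCCAG are marked as well. *Opalin* lies on the minus strand at chr1:249858141-249858440, *Mal* on the minus strand at chr3:135341374-135341673, *Hapln2* on the minus strand at chr2:175794389-175794688, *Klk6* on the plus strand at chr1:103415266-103415565 and *Enpp6* on the minus strand at chr16:52026679-52026978.
Opalin: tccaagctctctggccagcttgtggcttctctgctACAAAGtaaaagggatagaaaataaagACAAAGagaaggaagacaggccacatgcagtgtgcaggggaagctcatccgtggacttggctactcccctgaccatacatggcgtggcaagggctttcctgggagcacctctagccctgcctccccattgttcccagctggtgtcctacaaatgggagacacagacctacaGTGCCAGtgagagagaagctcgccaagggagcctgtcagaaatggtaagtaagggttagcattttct
Mal: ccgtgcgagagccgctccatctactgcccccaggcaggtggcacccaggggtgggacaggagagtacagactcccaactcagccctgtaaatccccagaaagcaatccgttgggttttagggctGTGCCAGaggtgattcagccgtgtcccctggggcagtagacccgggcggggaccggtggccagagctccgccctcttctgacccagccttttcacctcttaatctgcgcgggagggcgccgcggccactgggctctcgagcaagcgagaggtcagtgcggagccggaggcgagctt
Hapln2: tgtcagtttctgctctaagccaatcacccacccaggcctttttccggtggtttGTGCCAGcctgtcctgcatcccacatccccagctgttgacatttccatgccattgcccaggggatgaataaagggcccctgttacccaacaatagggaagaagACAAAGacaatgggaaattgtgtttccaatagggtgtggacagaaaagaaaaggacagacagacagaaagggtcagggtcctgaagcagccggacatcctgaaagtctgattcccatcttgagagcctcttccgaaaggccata
Klk6: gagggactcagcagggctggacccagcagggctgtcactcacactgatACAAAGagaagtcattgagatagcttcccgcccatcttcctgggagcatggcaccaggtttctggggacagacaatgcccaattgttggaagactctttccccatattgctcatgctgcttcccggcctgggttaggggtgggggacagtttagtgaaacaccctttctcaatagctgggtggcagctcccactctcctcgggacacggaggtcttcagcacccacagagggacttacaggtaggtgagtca
Enpp6: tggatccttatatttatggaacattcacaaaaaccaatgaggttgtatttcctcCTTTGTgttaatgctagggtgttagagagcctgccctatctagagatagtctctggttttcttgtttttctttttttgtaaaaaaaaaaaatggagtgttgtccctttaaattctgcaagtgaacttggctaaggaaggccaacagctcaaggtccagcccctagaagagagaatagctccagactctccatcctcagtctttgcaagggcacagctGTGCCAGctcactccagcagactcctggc
ACAAAG was found at 2 places in the *Opalin* window, at 1 place each in *Hapln2*, *Klk6* and *Enpp6*, and at 0 places in *Mal*. CTGGCAC was found at 1 place each in *Opalin*, *Mal*, *Hapln2* and *Enpp6*, and at 0 places in *Klk6*. Of 33469 promoter windows of this length, 18.8% held ACAAAG and 4.75% held CTGGCAC. These matches describe the letters of the windows, and binding was not measured.

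The label of mature oligodendrocyte held against markers that the rule did not use. Of 14 such markers, 13 were matched by name, 0 of them stood at 0 UMIs, and together they came to 94827 CPM (UMIs per 1000000 UMIs of the set) in the Control cells and 89770 CPM in the SC300 cells. In Klk6-positive cells the list came to 99885 CPM and 97353 CPM, and in newly formed oligodendrocytes 31492 CPM and 33278 CPM. *Mbp*, the basic protein that holds the cytoplasmic faces of myelin together, was found in all 71 cells, with 12, 220 and 977 UMIs as the lowest, median and highest count in Control, and 20, 232 and 826 in SC300. The rule genes *Mag* and *Mal* are given for their spread, not as a check. *Mag*, a glycoprotein of the inner myelin leaflet, ran from 3 through a median of 100 to 876 UMIs in the Control cells, and from 14 through 101.5 to 622 in those of SC300. *Mal*, a raft protein of compact myelin, ran from 0 through 46 to 298 UMIs and from 0 through 86.5 to 331 UMIs. For each of these genes the ranges of the 2 libraries overlapped over most of their length.

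Genes of other cell types and stages were scarce, except astrocyte genes and, in SC300, newly formed markers. The precursor list summed to 28.2 CPM in Control and 54.8 CPM in SC300, against 4512 and 4261 CPM in precursors, and was led by *Ptprz1* in Control and *Matn4* in SC300, with *Cspg4* at 0 in Control and *Cspg5* at 0 in SC300. The neuron list summed to 15.4 and 17.1 CPM, with *Snhg11* at 0 in both libraries, and the microglia list to 33.3 and 26.8 CPM, with *P2ry12* and *Cx3cr1* at 0 in both. Endothelial genes stood at 20.5 and 37.8 CPM, led by *Itm2a*. Mural genes had 2 UMIs in all in Control and none in SC300, and macrophage, ependymal, tanycyte and stromal lists to 7 UMIs or fewer each. Newly formed markers stood at 158 CPM, led by *Bmp4*, and 592 CPM, led by *Enpp6*. Astrocyte genes summed to 856 CPM in Control and 368 CPM in SC300 (329 and 282 CPM in Klk6-positive cells), led by *Agt*, and the 3 cells with the most UMIs of the list held 84.0% and 74.8% of it. Hypothalamic neuropeptides (*Avp*, *Oxt*, *Pomc* and 7 others), which oligodendrocytes do not make and which can reach any droplet as free RNA, stood at 55.1 and 68.3 CPM, compared with 54.6 and 55.2 CPM in Klk6-positive cells and 8639 and 13698 CPM in neurons of the same libraries. The part of these genes in any difference below was not tested, except where a value without the cells concerned is given.

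The limit on *Klk6* cut through a continuous range. In Control, 14 mature cells held 0, 21 held 1, 19 held 2 and 16 held 3 *Klk6* UMIs, and in SC300 the numbers were 16, 20, 15 and 22. The median mature cell held 12 *Klk6* UMIs in Control and 13 in SC300, with highest counts of 97 and 166. At the *Klk6* level of the Klk6-positive cells (829 and 873 CPM), a Klk6-low cell of the same depth would have held from 1.24 through a median of 18.8 to 45.9 UMIs in Control and from 3.50 through 18.3 to 48.9 in SC300. That number was under 5 in 6 Control cells and 1 SC300 cell, in which depth alone leaves *Klk6* poorly measured. Klk6-low cells had a median of 22655 UMIs in Control and 20932.5 in SC300, close to the medians of 20216 and 21069 in Klk6-positive cells, and 20 and 17 of them lay above the Klk6-positive median. Depth spread more at the low end, since 9 of 35 Klk6-low but 11 of 308 Klk6-positive Control cells held under 10000 UMIs, with 5 of 36 and 5 of 397 in SC300. At the other limits of the rule, 5 Control and 3 SC300 barcodes with at most 1 *Klk6* UMI had 3 of the 6 myelin genes and 0 and 7 had 4, 1 Control barcode was left out for 2 genes of other cell types, and 7 Control and 10 SC300 barcodes were left out for more than 30% mitochondrial UMIs. A doublet caller (Scrublet) marked 67 barcodes in each library, of which 0 Control cells and 1 SC300 cell were among the 71, and none was removed.

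The 71 cells were not uniform, and 3 small kinds of cell stood out from the rest. The limits that define them were set after their values were seen, so their numbers carry no test. The first kind, with 10 or more UMIs of *Enpp6* (a phosphodiesterase of newly formed oligodendrocytes), had 1 cell in Control and 7 in SC300. These cells held 40894 UMIs in Control and 12495 to 56062 UMIs (median 37234) in SC300, and were rich in *Mag* (338 UMIs, and 66 to 622), yet *Mal* stood at 0 in the Control cell and at 0 to 3 UMIs in the SC300 cells, and *Apod*, a lipocalin of mature cells, at 1 and at 0 to 8 UMIs. They held 64.5% of all *Enpp6* UMIs of the Klk6-low cells in Control and 97.6% in SC300, together with 64.3% and 97.8% of *Marcks*, an actin-binding substrate of protein kinase C, and 40.7% and 96.6% of *Pnlip*, named for pancreatic lipase. Each library had a cell at the edge of this limit. A further Control cell held 9 *Enpp6*, 0 *Mal*, 2 *Apod*, 78 *Marcks* and 73 *Pnlip* UMIs, and 1 of the 7 SC300 cells held 10 *Enpp6* UMIs. The second kind, with 30 or more UMIs of astrocyte markers, had 1 cell in Control and 2 in SC300. The Control cell held 82 UMIs of *Gja1*, 118 of the 122 UMIs of *Aqp4* and 1009 UMIs or 95.1% of *Apoe*, beside 6 *Mog* and 6 *Opalin* UMIs. The third kind had under 1% of its UMIs in AC134224.3, the most abundant transcript of the set outside the Mt- genes, and had 6 Control and 3 SC300 cells. These cells were shallow, with medians of 3105.5 and 6312 UMIs, and had median mitochondrial shares of 17.7% and 21.9%. In SC300, 1 cell met the limits of both the first and the third kind. The remaining 27 Control and 25 SC300 cells had medians of 70 and 58 *Mog*, 49 and 28 *Opalin*, 100 and 131 *Mal* and 136 and 151 *Apod* UMIs.

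**Figure D1:**
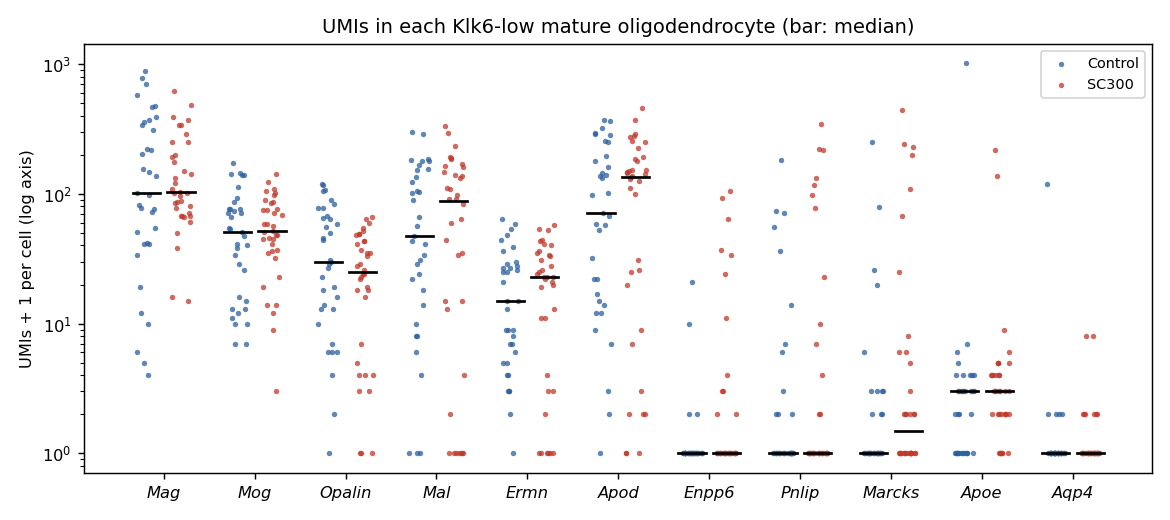
UMIs + 1 per cell (log axis) of 11 genes in each of the 35 Control and 36 SC300 Klk6-low mature oligodendrocytes, with the median as a bar. *Mag* and *Mog* are spread widely in both libraries, whereas *Enpp6*, *Pnlip* and *Marcks* are high in a few cells, mostly of SC300, and *Aqp4* and *Apoe* reach 118 and 1009 UMIs in the same Control cell.

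Per cell, the median share of late genes in Klk6-low cells lay between those of newly formed and Klk6-positive oligodendrocytes. The late list, which holds *Apod*, *Ptgds*, *Car2*, *Grm3* and *Hapln2* among others and no gene of the rule, took 1.21% of the UMIs of the median Klk6-low cell in Control (lowest 0.0685%, highest 3.36%) and 1.32% in SC300 (0.0320% to 2.86%). It took 0.227% and 0.244% in newly formed and 2.55% and 2.61% in Klk6-positive cells. The newly formed list, with *Enpp6*, *Bmp4*, *Tcf7l2*, *Fyn* and *Sirt2* among others, had medians of 0.295% and 0.217% in Klk6-low, 1.26% and 1.19% in newly formed and 0.140% and 0.135% in Klk6-positive cells. In Klk6-low cells *Sirt2*, which Klk6-positive cells also held, supplied 2995 of the 3633 CPM of this list in Control and 2802 of the 4230.5 CPM in SC300. The order of the medians does not hold for the stage markers of the list in Control, where *Enpp6* and *Bmp4* had log2 ratios over Klk6-positive cells of -0.52 and -0.64 (2.05 and -0.10 in SC300). On both lists the ranges of Klk6-low cells overlapped those of both other sets in each library. The newly formed set was itself chosen by *Enpp6*, *Bmp4*, *Casr*, *Gpr17* and *Neu4*, so its high newly formed list follows in part from that choice. *Gpr17*, a receptor of committed precursors, had 3 UMIs over all Klk6-low cells in Control and 1 in SC300, and *Neu4* was at 0 in both.

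**Figure D2:**
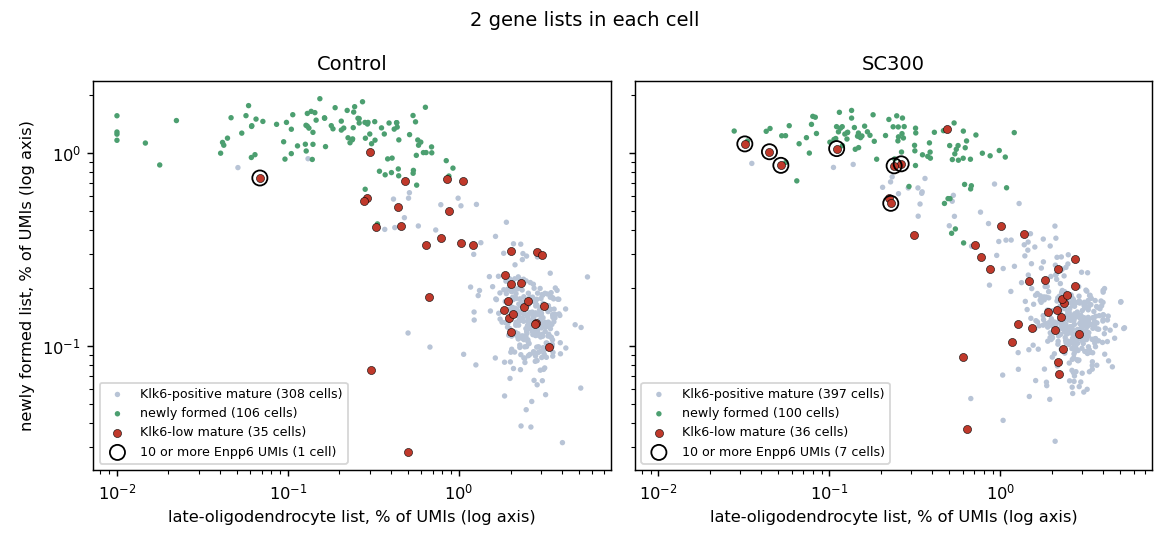
Share of the UMIs of each cell in the newly formed list against its share in the late list (both axes logarithmic, shares under 0.01% drawn at 0.01%), for newly formed, Klk6-low and Klk6-positive oligodendrocytes of each library. Many Klk6-low cells sit with the Klk6-positive cells at the lower right, a tail runs up to the newly formed cells, and the ringed cells with 10 or more *Enpp6* UMIs (1 in Control, 7 in SC300) lie in that tail.

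Against Klk6-positive cells of the same library, Klk6-low cells held less of *Hapln2*, *Apod*, *Ptgds*, *Tf* and *Fth1* and more of *Dpysl4*, *Nfasc* and *Arpc1a*. Both sets were cut from the same cells by *Klk6*, so these differences describe the split and carry no test. Of 5421 genes with at least 100 UMIs over both sets in each library, 160 were at least 1.5-fold higher (2.95%) and 162 at least 1.5-fold lower (2.99%) in Klk6-low cells in both libraries. For 70 of the 160 genes, 3 cells held 50% or more of the UMIs in the higher set of a library, and for 9 of the 162. The genes spread over more cells thus numbered 90 higher and 153 lower. Ratios here are on the log2 scale with exact 95% intervals that cover counting error only.

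Of the genes that were lower, *Hapln2*, *Apod* and *Ptgds* belong to the late list and *Tf* and *Fth1* to the iron list. *Hapln2*, a hyaluronan link protein of the node of Ranvier, had a median of 0 UMIs and a highest count of 16 in Klk6-low Control cells and 1 and 20 in SC300, whereas Klk6-positive cells had medians of 10 and 9 and highest counts of 89 and 82. Its level was 78.2 against 647 CPM in Control (log2 ratio -3.05, -3.44 to -2.68) and 129 against 629 CPM in SC300 (-2.28, -2.58 to -2.01). At equal depth of 5000 UMIs per cell, which left out 6 Klk6-low and 5 Klk6-positive cells in Control and 1 Klk6-low cell in SC300, *Hapln2* was seen in 24.1% of Klk6-low and 74.3% of Klk6-positive cells in Control and in 31.4% and 70.8% in SC300, compared with 42.9%, 90.9%, 55.6% and 86.6% without thinning. In astrocyte-lineage cells, which should lack it, 2.83% and 2.97% of cells held an *Hapln2* UMI at median depths of 7106 and 6852.5 UMIs. *Apod* was present in nearly all cells but lower in amount, with medians of 70 and 134.5 UMIs in Klk6-low and 238 and 246 in Klk6-positive cells, and a ratio of -1.24 in Control and -1.15 in SC300. *Ptgds*, the prostaglandin D2 synthase, had ratios of -1.16 and -0.93, transferrin (*Tf*) -1.02 and -1.04, and the ferritin heavy chain (*Fth1*) -0.95 and -0.77. *S100b*, a calcium-binding protein, stood in Control at 220 against 1182 CPM (-2.42) and in SC300 at 137 against 395 CPM (-1.53), but 3 cells held 87.2% and 76.8% of its Klk6-low UMIs, and with cells thinned to 5000 UMIs the SC300 ratio was 0.10. *Slc5a11*, a sodium-coupled inositol transporter, was seen in 8 and 7 Klk6-low cells (-2.47 and -2.51), and *Slco3a1*, an organic anion transporter, in 8 cells of each library (-2.94 and -2.40). The connexin *Gjb1* had ratios of -1.20 and -1.25, and the transcription factor *Etv1* -2.64 and -1.92.

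Apart from *Klk6* itself (-4.95 and -5.16, fixed by the rule), the most negative ratios included genes that Klk6-positive cells held in a few cells. *Hbb*, a haemoglobin chain, was at 0 in Control and at 1 UMI in SC300 in Klk6-low cells, against 158 and 47.5 CPM in Klk6-positive cells. As *Hbb* had 0 UMIs in Control, its ratio of -5.36 there is a bound set at 3 UMIs. In Klk6-positive cells, 94.9% and 90.2% of these *Hbb* UMIs lay in 3 cells, and LOC103694857 had 93.9% and 92.9% there. Without the 3 cells with the most UMIs, the *Hba-a2* ratios in SC300 were 0.36 and 0.15. The microglial complement gene *C1qa* had ratios of -2.71 and -2.74, with 88.9% and 74.9% of the Klk6-positive UMIs in 3 cells. *Hspa1b*, an inducible heat shock protein, was spread over 93 and 108 Klk6-positive cells and was seen in 6 and 3 Klk6-low cells (-2.47 and -3.48).

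Among the genes higher in Klk6-low cells, those spread over many cells were led by *Dpysl4*, *Nfasc* and *Arl5b*. *Dpysl4*, a collapsin response mediator that binds microtubules, had at least 1 UMI in 23 Klk6-low Control cells (of 35) and 27 Klk6-low SC300 cells (of 36), and in 96 (of 308) and 231 (of 397) Klk6-positive cells (1.94 and 1.71). *Nfasc*, the adhesion molecule of the paranodal junction, had a median of 8 UMIs in the Klk6-low cells of both libraries and of 2.5 and 3 in Klk6-positive cells, with highest counts of 112, 205, 176 and 154. Its ratios were 1.83 (1.70 to 1.95) and 1.53 (1.43 to 1.64), with 40.9% and 49.0% of its Klk6-low UMIs in 3 cells. Over the alternative settings, the lowest ratios of *Nfasc* were 0.30 in Control and 0.28 in SC300, and those of *Dpysl4* 1.69 and 0.52. *Arl5b*, a small GTPase of the ARF-like family, had 1.38 and 1.52. *Arpc1a*, a subunit of the actin-nucleating Arp2/3 complex, had 1.55 and 1.38, the protease *Adamts4* 1.10 and 0.90, the receptor *Notch1* 1.11 and 1.56, and *Cdkn1a*, the cyclin-dependent kinase inhibitor p21, 1.19 and 1.07. The tubulin deacetylase *Sirt2* had a median of 30 and 44 UMIs in Klk6-low and 21.5 and 23 in Klk6-positive cells (0.95 and 0.76). *Anxa2*, an annexin, stood at 228 against 30.3 CPM in Control (2.91) and at 116 against 50.6 CPM in SC300 (1.19), with 55.6% and 71.6% of its Klk6-low UMIs in 3 cells. Without these 3 cells its SC300 ratio was -0.06, beside a median of -0.21 over all genes when each gene lost its 3 richest cells.

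In SC300, the largest positive ratios included genes that were no longer higher without the few cells rich in *Enpp6*. *Pnlip* had ratios of 3.37 and 2.65, *Marcks* 2.51 and 3.32, the Ras-related *Rras2* 2.38 and 2.16, the Wnt effector *Tcf7l2* 2.11 and 2.65, the glutamate transporter *Slc1a1* 1.93 and 3.10, and the small GTPase *Rap2c* 1.59 and 2.24. Without the 1 Control and 7 SC300 cells that held 10 or more *Enpp6* UMIs, all 6 genes were lower in Klk6-low SC300 cells, at -1.74, -1.71, -0.44, -0.10, -0.57 and -1.05, while in Control the same removal gave 2.69, 1.10, 2.21, 1.03, 0.90 and 0.74. A Control cell just under that limit, with 9 *Enpp6* UMIs, stayed in. It held 78 of the 387 *Marcks* and 73 of the 442 *Pnlip* UMIs of Control, so these 2 Control ratios depend on where the limit was set. *Gadd45a*, a stress sensor of growth arrest, had 2.17 and 2.01, *Fstl1* 2.18 and 1.68 and *Cmtm7* 1.71 and 3.18. For *Gadd45a*, 3 cells held 66.7% and 54.6% of the Klk6-low UMIs. Over the alternative settings, its lowest ratios were 1.08 in Control and 0.28 in SC300, and those of *Fstl1* 1.63 and 0.45. The Control ratio of *Cmtm7* was -1.49 without the 3 cells with the most UMIs. *Enpp6* itself was not among the genes higher in both libraries, at -0.52 in Control and 2.05 in SC300.

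**Figure D3:**
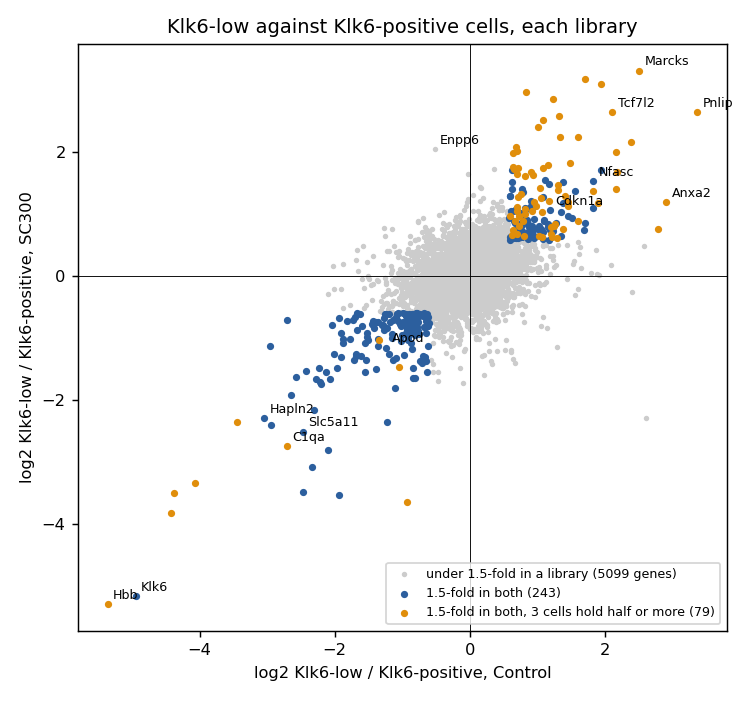
Log2 ratio of CPM in Klk6-low over Klk6-positive mature oligodendrocytes for 5421 genes, Control on the x axis and SC300 on the y axis. Blue marks genes at least 1.5-fold apart in the same direction in both libraries (243), orange those of which 3 cells hold 50% or more of the UMIs in a library (79), and *Hapln2* and *Apod* lie low while *Nfasc* and *Cdkn1a* lie high in both.

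Ordered by *Klk6* UMIs, several genes were graded over the mature cells from 1 *Klk6* UMI upward. Cells were binned at 0, 1, 2 to 5, 6 to 15 and 16 or more *Klk6* UMIs, with 14, 21, 58, 116 and 134 cells in Control and 16, 20, 67, 145 and 185 in SC300, and median depths between 18547.5 and 25027 UMIs. *Hapln2* stood at 63.6, 88.9, 217, 366 and 1011 CPM along the Control bins and at 192, 86.1, 182, 343 and 1012 CPM along the SC300 bins. *Apod* went from 5055 to 15812 CPM and from 5478 to 16216 CPM between the end bins, and *Tf* from 3000 to 8535 and from 3274 to 8088 CPM. *Nfasc* went the other way, at 1265, 675.5, 486, 316 and 140 CPM along the Control bins and 992, 1181, 668, 507 and 179 CPM along those of SC300. *Opalin*, a rule gene, stood at 1943 CPM in the 0 bin and 723 CPM in the top bin in Control, and at 1212 and 699 CPM in SC300. The bins at 0 hold under 20 cells each, and in SC300 *Hapln2*, *Tf* and *Nfasc* ran against the order of the higher bins between 0 and 1 UMI. From the bin at 1 UMI upward, *Hapln2*, *Apod* and *Tf* were higher in every next bin of both libraries, and *Nfasc* was lower in every next bin. *Mog* and *Mbp* had such an order in neither library. *Mag*, a rule gene, was lower in every next bin of Control. In SC300 it stood at 7008 CPM at 1 UMI, 7594 CPM at 2 to 5 UMIs and 4522 CPM in the top bin.

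**Figure D4:**
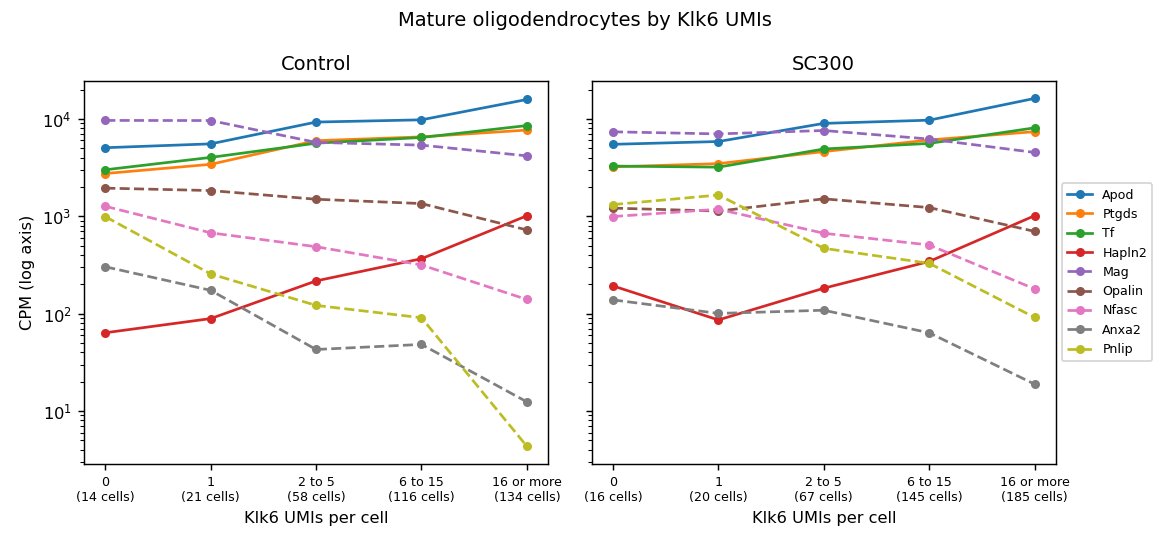
CPM (log axis) of 9 genes in mature oligodendrocytes binned by *Klk6* UMIs per cell, Control left and SC300 right, with the number of cells under each bin. *Apod*, *Ptgds*, *Tf* and *Hapln2* (solid) are higher and *Nfasc*, *Anxa2* and *Opalin* (dashed) lower at 16 or more *Klk6* UMIs than at 1 UMI in both libraries.

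Over all 5421 genes, 2.95% were higher and 2.99% lower than in Klk6-positive cells, and the counts of each gene list are read beside these shares. Of 18 myelin protein genes measured against Klk6-positive cells, 0 were higher and 3 lower (*Ermn*, a rule gene, *Pmp22* and *Hapln2*), with a median ratio of 0.01 in Control and -0.12 in SC300, beside medians over all 5421 genes of -0.01 and 0.04. *Mbp* stood at 0.21 and 0.29 and the tight junction protein *Cldn11* at 0.08 and 0.09. Of 13 myelin lipid enzymes 0 were higher and 1 lower (*Plekhb1*, -1.43 and -0.78), and of 15 cholesterol genes 0 in either direction. Of 12 genes of paranode, node and adhesion, 2 were higher (*Nfasc*, *Adamts4*) and 1 lower (*Gjb1*). Of 9 late mature genes 4 were lower (*Ptgds*, *Apod*, *Pmp22*, *Hapln2*) and 1 higher (*Anxa2*), and of 6 newly formed genes 4 were higher (*Tcf7l2*, *Fyn*, *Rras2*, *Sirt2*). The SC300 ratios of *Tcf7l2* and *Rras2* were negative without the cells rich in *Enpp6*, as given above. Of 10 oligodendrocyte transcription factors 1 was higher (*Tcf7l2*), whereas *Olig1* stood at 0.59 and 0.08, *Olig2* at 0.81 and 0.45 and *Myrf* at -0.11 and 0.40. Of 5 iron genes 2 were lower (*Tf*, *Fth1*). Of 6 immediate-early genes 2 were higher, of which *Jun* had 0.82 and 1.09, and 2 lower, of which *Fos* had -2.23 and -1.48 and was seen in 8 Klk6-low cells of each library. Of 79 ribosomal protein genes 1 was higher and 0 lower, and of 76 nuclear genes of oxidative phosphorylation 0 and 1.

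Against newly formed oligodendrocytes (106 Control and 100 SC300 cells), the Klk6-low cells differed in far more genes. Of 2861 genes with at least 100 UMIs over both sets in each library, 321 were higher (11.2%) and 890 lower (31.1%) in both libraries, and the median ratio over these genes was -0.43 in Control and -0.36 in SC300. Since the newly formed set excludes cells that meet the mature rule, the rule genes *Mal*, *Ermn* and *Opalin* had to differ. Of genes outside the rule, *Car2*, the carbonic anhydrase of myelinating cells, stood at 2833 against 9.01 CPM in Control (8.30, 7.45 to 9.30) and 2339 against 5.21 CPM in SC300 (8.81, 7.76 to 10.1). *Grm3*, a metabotropic glutamate receptor, was found in 25 and 24 Klk6-low cells and at 0 UMIs in newly formed cells, so its log2 ratio is a lower bound set at 3 UMIs in each library (6.34 and 6.32). The natriuretic peptide receptor *Npr1* was likewise at 0 in newly formed cells (bounds of 6.12 and 5.88), and *Gstt3* had 6.96 and 6.90. On the lower side, *C1ql1*, a secreted C1q-like protein of precursors, stood at 2.56 against 913 CPM (-8.48) and 3.66 against 971 CPM (-8.05). *Vcan*, a proteoglycan of precursors, had -7.36 and -5.49, *Tgfb2* -6.51 and -6.06 and *Mycl* -6.98 and -5.66.

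Of 17 myelin protein genes, 15 were higher than in newly formed cells, of which 6 are genes of the rule and had to differ, and 1 was lower (*Cd9*, -0.86 and -0.87), with *Mbp* at 0.89 and 0.84. Of 12 myelin lipid enzymes 10 were higher and 0 lower, with the desaturase *Degs1* at 2.11 and 1.69, and of 14 cholesterol genes 2 were higher (*Hmgcs1*, *Cyp51*). Of 8 late genes 7 were higher and 1 lower (*Cdkn1c*). Of 9 newly formed genes 7 were lower, with *Fyn* at -4.43 and -3.39 and *Tcf7l2* at -3.31 and -2.003, and *Enpp6*, a gene of the newly formed rule, at -4.87 in Control and -1.72 in SC300. Of 75 ribosomal protein genes 61 were lower and 0 higher (medians -1.15 and -0.84). Of 71 nuclear genes of oxidative phosphorylation 13 were lower, and of 12 mitochondrial genes 1 was higher, at mitochondrial shares per cell with medians of 12.1% and 12.6% in Klk6-low and 9.53% and 10.99% in newly formed cells.

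The comparison of SC300 with Control asks whether these cells and their transcripts differed after neonatal EB. Klk6-low cells made up 0.891% of the kept barcodes in Control (95% Clopper-Pearson interval 0.621% to 1.24%) and 0.919% in SC300 (0.644% to 1.27%). Among mature oligodendrocytes their share was 10.2% (7.21% to 13.9%, 35 of 343) and 8.31% (5.89% to 11.3%, 36 of 433). Both pairs of intervals overlap. They cover the counting of cells within a library and not the spread between rats, so they say nothing of a difference between the groups. A mitochondrial limit of 10% left 5 Klk6-low cells in Control and 1 in SC300, too few to compare. All mature oligodendrocytes together made up 8.73% of kept barcodes in Control (7.87% to 9.66%) and 11.05% in SC300 (10.08% to 12.1%), and the Klk6-positive cells 7.84% (7.02% to 8.73%) and 10.1% (9.20% to 11.1%), pairs of intervals that do not overlap. Of cells with 10 or more *Enpp6* UMIs there was 1 of 35 in Control (2.86%, 0.0723% to 14.9%) and 7 of 36 in SC300 (19.4%, 8.19% to 36.0%). These counts depend on a limit set after the values were seen, as a further Control cell held 9 *Enpp6* UMIs.

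In the summed transcripts of the Klk6-low cells (780400 UMIs in Control, 820471 in SC300), 2174 genes had at least 100 UMIs over both libraries, and 126 of them were at least 1.5-fold higher (5.8%) and 74 at least 1.5-fold lower (3.4%) in SC300. The median log2 ratio was 0.03. In 33 of the 126 genes and 14 of the 74, 3 cells held 50% or more of the UMIs in the higher library. With 1 library a group, these counts describe this pair of libraries.

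Genes that were lower in SC300 and spread over many cells were led by *Hspa2*, *Ccng1* and *Cdkn1a*. *Hspa2*, a constitutive heat shock protein, had 111 UMIs in Control and 37 in SC300 (142 and 45.1 CPM, log2 ratio -1.66, -2.24 to -1.11), in 20 and 19 cells. *Ccng1*, an atypical cyclin induced by p53, had 127 and 53 UMIs (-1.33), and *Cdkn1a*, also a p53 target, 196 and 85 UMIs in 27 and 20 cells (-1.28, -1.66 to -0.90). Per cell, *Cdkn1a* ran from 0 through a median of 3 to 25 UMIs in Control and from 0 through 1 to 20 in SC300, so the ranges overlapped. In Klk6-positive cells of the same libraries the ratios were -0.57 for *Hspa2*, -1.49 for *Ccng1* and -1.16 for *Cdkn1a*, and *Ccng1* stood at -1.59 in newly formed oligodendrocytes, -1.26 in precursors, -0.95 in astrocyte-lineage cells, -1.23 in neurons, -0.59 in microglia and -0.56 in endothelial cells. All sets come from the same pair of libraries, and their values are given side by side. *Fabp5*, a fatty acid-binding protein, had 987 and 444 UMIs, with a median of 11 and a highest count of 213 in Control and 5 and 113 in SC300 (-1.22, -1.39 to -1.06), and stood at -0.82 in Klk6-positive cells. The aldehyde dehydrogenase *Aldh2* had 112 and 50 UMIs (-1.24), and stood at -0.51 in Klk6-positive cells, -0.52 in astrocyte-lineage cells and 1.77 in microglia. Further genes were LOC108348064 (-1.15), the Rab GTPase *Rab8b* (-1.03) and the phosphatase *Lhpp* (-0.98). In Klk6-positive cells these stood at -0.56, -0.03 and 0.01. LOC103694857 had 94 and 42 UMIs (-1.23), in 88.6% and 66.7% of Klk6-low cells. It was found in 91.6% and 51.1% of astrocyte-lineage cells and 98.5% and 76.6% of neurons, reached 54744 and 41699 CPM in endothelial cells, and had ratios of -1.84 in Klk6-positive cells, -1.92 in newly formed cells and -4.36 in neurons. The part of free RNA in its ratio was not tested.

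Genes that were higher in SC300 and spread over many cells were led by LOC363337, *Cadm1* and *Lrrn1*. LOC363337 had 53 UMIs in 18 Control cells and 169 in 28 SC300 cells (1.60, 1.15 to 2.07), and its ratio in Klk6-positive cells was 1.504. The adhesion molecule *Cadm1* had 33 and 93 UMIs (1.42, 0.84 to 2.04) and the leucine-rich repeat protein *Lrrn1* 35 and 96 UMIs in 17 of 35 and 33 of 36 cells (1.38, 0.81 to 1.99), with ratios in Klk6-positive cells of 0.24 and -0.08. LOC103689968 had 54 and 140 UMIs (1.30) and LOC100364435 76 and 175 (1.13). Between 0.97 and 1.04 were *Yipf1*, the peptide transporter *Slc15a4*, the dynein adaptor *Bicd2*, *Zfpl1* and the histidyl-tRNA synthetase *Hars*, of which *Bicd2* had 40 and 86 UMIs and *Hars* 37 and 76. In Klk6-positive cells these 5 genes stood between -0.12 and 0.31.

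**Figure D5:**
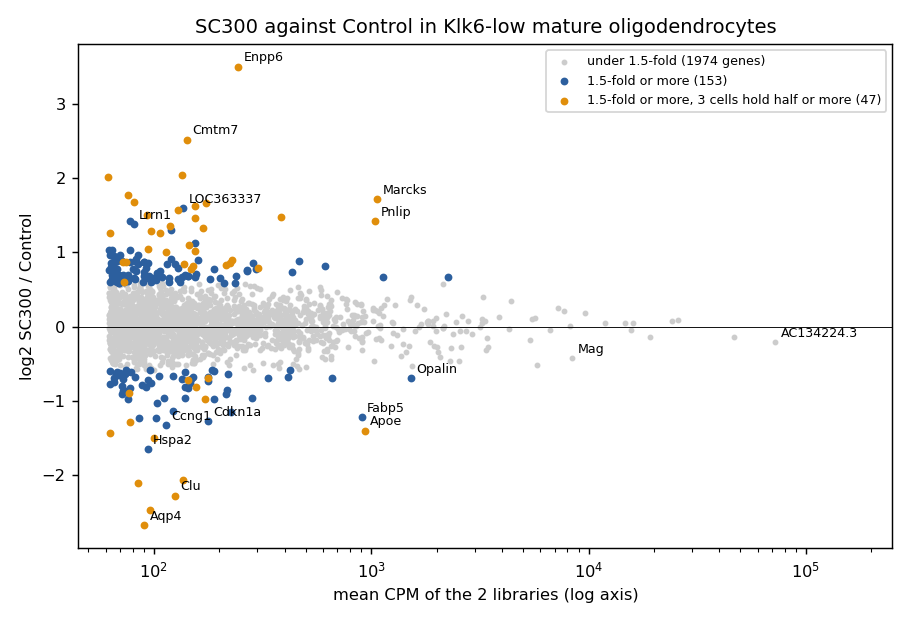
Log2 ratio of SC300 over Control against mean CPM (log axis) for 2174 genes in Klk6-low mature oligodendrocytes. Blue marks genes at least 1.5-fold apart (153) and orange those of which 3 cells hold 50% or more of the UMIs in the higher library (47), among them *Enpp6* at 3.50 and *Aqp4* at -2.68.

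The largest ratios were carried by the small kinds of cell described above. *Enpp6* had 31 UMIs in 4 Control cells and 370 in 12 SC300 cells (3.50, 2.97 to 4.08), while its ratio was 0.35 in newly formed and 0.93 in Klk6-positive cells. *Cmtm7* had 33 and 199 UMIs (2.52), *Cnksr3* 41 and 178 (2.05), *Marcks* 387 and 1338 (1.72) and *Pnlip* 442 and 1244 (1.42). In Klk6-positive cells these ratios were 1.05, 0.60, 0.91 and 2.14, and in newly formed cells they lay between -0.09 and 0.15. Without the cells that held 10 or more *Enpp6* UMIs, *Pnlip* stood at -2.29 and *Marcks* at -1.89, and the number of genes higher in SC300 was 65 in place of 126. The Control cell with 9 *Enpp6* UMIs stayed in, with 78 *Marcks* and 73 *Pnlip* UMIs, so both ratios depend on where the limit was set. On the other side, the water channel *Aqp4* (122 and 20 UMIs, -2.68), the matricellular gene *Sparc* (-2.48), *Clu* (-2.28) and *Apoe* (1061 and 421 UMIs, -1.41) had 98.4%, 89.0%, 98.1% and 96.1% of their Control UMIs in 3 cells. Without the 1 Control and 2 SC300 cells that held 30 or more astrocyte marker UMIs, *Apoe* stood at 0.37. Without the 3 cells with the most UMIs, *Aqp4* had 2 UMIs left in Control and 5 in SC300, too few to read a ratio.

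The gene lists are read beside the shares over all 2174 genes, of which 5.8% were higher and 3.4% lower in SC300. Of 18 myelin protein genes measured, 2 were higher (*Pmp22* 0.86, *Hapln2* 0.72) and 1 lower in SC300 (*Opalin*, 1468 and 954 UMIs, -0.69), with a list median of -0.05 beside 0.03 over all genes. *Opalin* is a gene of the rule, as are *Mog* (-0.06) and *Mag* (-0.43), and their values are a description. *Mbp* stood at 0.04. *Hapln2* had 61 and 106 UMIs, of which 3 cells held 55.7% and 48.1%. Of 12 myelin lipid enzymes 2 were higher (*Plekhb1* 0.89, *Enpp2* 0.73), and of 14 cholesterol genes 2 were higher (among them *Insig1*, 0.78) and 2 lower (the regulator *Srebf2* -0.82, *Nsdhl* -0.61). Of 8 genes of paranode, node and adhesion 0 were called, with *Nfasc* at 0.26 and *Ank3* at -0.33. Of 9 transcription factors 1 was higher (*Tcf7l2*, 49 and 124 UMIs, 1.27, with 75.5% and 62.1% in 3 cells), and *Sox10* and *Myrf* stood at 0.51 and 0.50. Cells with 10 or more *Enpp6* UMIs held 55.1% of the *Tcf7l2* UMIs in Control and 89.5% in SC300, so its ratio rests mostly on them. Of 9 genes of metabolic support 1 was higher (*Ldha* 0.85) and 3 lower (the lactate transporter *Slc16a1* -0.72, *Aldoc* -0.72, *Qdpr* -0.59). For *Aldoc*, 3 cells held 73.4% of the Control UMIs, and for *Ldha* 50% of the SC300 UMIs. Of 4 iron genes 1 was higher (*Slc11a2* 0.69). Of 9 late genes 3 were higher and 2 lower, with *Apod* at 0.10 and *Ptgds* at 0.10, of 9 myelin-forming genes 0 and 3 (the rule gene *Opalin*, *Slc9a3r2* -0.68, *Igsf8* -0.70), and of 6 newly formed genes 3 and 0 (*Enpp6*, *Tcf7l2*, *Fyn*). A few cells carried these 3 as well. In SC300, cells with 10 or more *Enpp6* UMIs held 97.6% of the *Enpp6* UMIs, and 3 cells held 54.4% of the *Fyn* UMIs. Of 2 genes of the list for *Klk6*-rich cells 0 were higher and 1 lower (*S100b*, -0.69).

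Heat shock genes came to 3967 CPM in sum in Control and 4093 CPM in SC300. They came to 4361 and 3981 CPM in Klk6-positive cells and 6501 and 5583 CPM in newly formed cells. The estrogen receptors *Esr1* and *Esr2*, the progesterone receptor *Pgr* and *Gper1* had 0 UMIs in both libraries, which allows up to 3 UMIs each of 780400 and 820471, or 3.84 and 3.66 CPM. *Esr1* was found at 8.62 and 4.30 CPM in neurons of the same libraries. The thyroid hormone receptor *Thra* was the sole gene of 15 matched receptors and coactivators that reached 100 UMIs, with 88 and 131 (0.50, 0.10 to 0.91). Of 3 glucocorticoid response genes 0 were higher and 2 lower, *Cdkn1a* and the kinase *Sgk1* (139 and 83 UMIs, -0.82), and *Sgk1* stood at -0.79 in Klk6-positive cells. Of 3 immediate-early genes 1 was lower (*Jund*, -0.68), of 3 genes of complement and damage response 1 was lower (*Cdkn1a*), and of 7 heat shock genes 0 were called. In the interferon list, the sole gene tested was *B2m* (84 and 99 UMIs, 0.16), and *Ifi27* had 60 UMIs in 13 Control cells and 5 in 4 SC300 cells, which is under the limit of 100. The level of *Ifi27* was also lower in SC300 in Klk6-positive cells (196 and 12.4 CPM) and in newly formed cells (66.3 and 6.70 CPM). The clock list had 0 genes at 100 UMIs. Of 12 mitochondrial genes 0 were called (median 0.13), of 71 nuclear genes of oxidative phosphorylation 0 (median -0.11) and of 71 ribosomal protein genes 0 (median 0.24).

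The 20 most abundant transcripts other than Mt- genes gave the set its bulk. AC134224.3, of which only the name is given, took 7.75% of the UMIs in Control and 6.69% in SC300, *Cnp* 1.59% and 1.53%, and *Mbp* 1.17% and 1.21%. *Mag* took 0.962% and 0.715%, against 0.486% and 0.567% in Klk6-positive cells, and the tetraspanin *Cd81* 0.683% and 0.478%, against 0.395% and 0.389%. *Apod* took 0.533% and 0.570% against 1.26% in both libraries. Within the set, the genes with the most variation between cells at equal depth included AC134224.3, with a variance of 73.0 and 63.3 times the mean, *Apoe* with 204 and 35.04, *S100b* with 30.3 and 23.6, *Marcks* with 20.2 and 26.4 and *Apod* with 22.4 and 17.4. The median of this ratio over 2672 genes was 1.09 in Control and 1.08 in SC300. *S100b* was at 0 UMIs in 18 Control and 19 SC300 cells and reached 91 and 44 UMIs in others.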

How the data were processed

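Single-cell suspensions of pooled tissue from 3 rats per group were barcoded on the 10x Genomics platform (3′ v3 chemistry) and sequenced. The authors deposited raw UMI counts per gene and barcode, made with Cell Ranger (version 3.0.1 in the submitters' processing notes) and an Ensembl rat transcriptome. All values here were computed from these 2 count matrices (32883 genes, 0 further columns) in Python (3.11.15), using scipy (1.17.1) for intervals, scanpy (1.11.5) for doublet calls, pandas (2.3.3) and numpy (2.4.6) for tables and sums, and matplotlib (3.10.9) for plots. UMIs were summed over the cells of a set in a library, scaled to CPM and compared as log2 ratios with exact conditional binomial 95% intervals, and shares carry Clopper-Pearson intervals. Both kinds of interval cover counting error only. A count of 0 was set to 3 UMIs, which makes its ratio a bound. Genes with at least 100 UMIs over the compared sets were considered, and called when at least 1.5-fold apart (within libraries, in both). With 1 library per group no test was possible. The scripts were tested on simulated data. Depth per library and per set is given with the results and limits genes of few UMIs most.

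The text names the genes of the rule, list members, the 20 most abundant and 20 most variable genes, and per direction the 10 genes with the largest ratio (within libraries, by the smaller of both). Between libraries, genes of which 3 cells hold 50% or more of the UMIs were left out of that rule. Such genes named in that comparison, and genes named against Klk6-positive cells outside the rule and the lists, were chosen after their values were seen. Some genes that met the rule are not reported here. The members and the 18 gene lists (303 of 324 list and marker genes matched by name) were chosen with earlier results of these data known. A further 3 lists were taken by name pattern (mitochondrial, oxidative phosphorylation, ribosomal). Promoters were matched by symbol in RefSeq tables for GRCr8. Alternatives covered the limits on mitochondrial UMIs, *Klk6*, myelin genes and other genes, doublets (Scrublet), 3 other scales, thinning to 5000 UMIs, the UMI minimum, the fold and leaving out for each gene the 3 cells with most of its UMIs. Leaving out the 3 small kinds of cell was added after the data were seen.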

Additional observations from a re-analysis of the deposited data

Results flagged for a closer look

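Some genes had ratios of opposite sign in sets of cells from the same pair of libraries, and with 1 library per group these differences were not tested. The SC300 over Control log2 ratio of *Marcks* was 1.72 in Klk6-low, 0.91 in Klk6-positive and -0.09 in newly formed cells. In Klk6-low cells without those that held 10 or more *Enpp6* UMIs it was -1.89, with a Control cell of 9 *Enpp6* UMIs kept. For *Mag*, a gene of the rule whose level is a description, it was -0.43 in Klk6-low, 0.22 in Klk6-positive and 0.17 in newly formed cells, and for *Pmp22* 0.86 in Klk6-low and -0.16 in Klk6-positive cells. The Klk6-low over Klk6-positive ratio differed in sign between the libraries for *Hmgcs1* (0.092 in Control, -0.11 in SC300), *Insig1* (-0.44 and 0.36) and *Sox10* (-0.24 and 0.29). The causes were not tested.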

How the results depend on the processing

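No paired analysis was possible because each group has 1 library, which also leaves no replicate to leave out. Of the summary values under alternatives, 68 stayed within the set margin and 34 moved. Of the values of single genes 924 stayed, 294 moved and 26 changed sign from a main ratio of at least 1.5-fold. A smaller main ratio that changed sign counts as moved. The SC300 over Control ratio of *Mag* (main -0.43) reached 0.083 in an alternative. The SC300 ratio of *Opalin* over Klk6-positive cells (main 0.18) reached -2.54. The cause was not tested except where fewer cells or genes follow from the alternative itself.

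A mitochondrial limit of 10% left 5 Klk6-low cells in Control and 1 in SC300, a cell with 33 *Enpp6* UMIs, so the values at this limit describe those cells. The share of Klk6-low cells was then 0.312% and 0.0851% (log2 ratio -1.87, -7.44 to 1.29). It was 0.356% and 0.408% with *Klk6* at 0 UMIs, 0.611% in Control with none of the 4 genes of other types, and 0.638% in SC300 without all 3 small kinds of cell. The 126 genes higher in SC300 became 21 at the 10% mitochondrial limit, with 1 SC300 cell against 5 (median ratio of all genes -0.50), 34 with *Klk6* at 0, 65 without the *Enpp6* cells, 57 without all 3 kinds, 21 after thinning, 284 at 50 and 48 at 200 UMIs, and 31 at a fold of 2. The 74 lower genes became 31 with *Klk6* at 0, 13 after thinning, 170 at 50 and 31 at 200 UMIs, and 18 at a fold of 2. Against Klk6-positive cells, the 160 higher genes became 14 at the 10% mitochondrial limit, again with 1 SC300 cell, 78 without the *Enpp6* cells, 71 without all 3 kinds, 39 after thinning, 103 at 200 UMIs, 34 without the 3 cells with the most UMIs of each gene, and 41 at a fold of 2. The 162 lower genes became 34 at that limit, 272 with *Klk6* at 0, 66 after thinning, 263 at 50 and 106 at 200 UMIs, 704 without the 3 cells, and 51 at a fold of 2. Leaving out 3 cells takes more from the small than from the large set and shifted the median ratio by construction, to -0.30 in Control and -0.21 in SC300.

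Among main ratios of at least 1.5-fold, signs changed for these genes. Without the *Enpp6* cells, the SC300 over Control ratios were -2.29 for *Pnlip* and -1.89 for *Marcks*, and without all 3 kinds -2.82 and -2.73. In these ratios a Control cell with 9 *Enpp6* UMIs stayed in, and it held 78 *Marcks* and 73 *Pnlip* UMIs. The SC300 ratios over Klk6-positive cells were -1.74 for *Pnlip*, -1.71 for *Marcks*, -0.44 for *Rras2*, -0.10 for *Tcf7l2*, -0.57 for *Slc1a1* and -1.05 for *Rap2c* without the *Enpp6* cells, and -2.24, -2.73, -0.63, -0.080, -0.70 and -1.27 without all 3 kinds. *Apoe* had an SC300 over Control ratio of 2.91 at a mitochondrial limit of 20%, 0.37 without the astrocyte-marker cells and 0.49 without its 3 richest cells, and *Aqp4* 1.28 without its 3, a ratio of 2 to 5 UMIs that carries no direction. The 20% limit left out the Control cell with 1009 *Apoe* UMIs, which had 20.4% mitochondrial UMIs. It kept the SC300 cells with 216 and 136 *Apoe* UMIs. Over Klk6-positive cells, *Marcks* was at -3.22 in the 5 Control cells of the 10% limit, *S100b* at 0.10 in SC300 after thinning, and without the 3 richest cells the *Hba-a2* copies were at 0.36 and 0.15 in SC300, *Cmtm7* at -1.49 in Control and *Anxa2* at -0.059 in SC300. Without the 3 richest cells the median over all genes was -0.30 in Control and -0.21 in SC300, so *Anxa2* stayed above that median.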
